A study of Brassica napus with 12 samples.

Results

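The stretch described here is a run of gene IDs with consecutive numbers, ERC29129 to ERC29322, in a table of read counts from the leaves of canola (Brassica napus). All 194 numbers of the range were in use, each in 1 ID. Of the 194 IDs, 86 were single, with an ERC number alone, and 108 were joined, with an ERF number and an ERC number in 1 ID. Levels are given as CPM, the count scaled to a library total of 1000000. The 105 IDs whose mean over the 12 libraries reached 0.5 CPM were kept as members, 35 single and 70 joined, out of 60756 IDs in the whole table. The number range was chosen by the measured values themselves, because its IDs differed between the selected line PEG-2 and its control in these same libraries. The members are therefore described with no test in every comparison of PEG-2 and in that of the PEG control with the EUE control, and counts of calls given there cover the whole table.

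Each library held polysomal RNA from leaf 4 of 26-day-old untreated plants, grown for 2 weeks on agar with 2% sucrose and for 12 days in soil. The PEG control line, the selected epiline PEG-1 and the selected epiline PEG-2 had 2 libraries each, and the EUE control line and the EUE selected epiline had 3 each. All carried the same cultivar label, and the design text describes plants selected because they respired less and held more NAD(P)H. It names 2 epilines in triplicate, whereas the sample labels give 3 selected lines, so the groups were taken from the sample labels. Each label calls its libraries biological replicates but does not say whether they came from separate plants or pools. P-values therefore judge group differences only against the spread between these libraries, estimated over all groups together.

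Canola is an allopolyploid that carries the genomes of both Brassica rapa and Brassica oleracea, so most of its genes occur as closely related copies, called homoeologs, on the chromosomes of both ancestors. Polysomes are messenger RNAs loaded with ribosomes. A level of polysomal RNA therefore reflects both the amount of a transcript and how much of it is being translated, and in whole leaves fewer cells of a type and less RNA per cell cannot be told apart. The IDs are bare numbers, and 0 were found in the RefSeq gene table of the species, so no function, position, sequence or leaf marker gene can be given, and what ERF and ERC stand for is not stated in the sources used here.

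Library totals ran from 36210542 to 42696798 counts. Of the 60756 IDs, 13162 were at 0 throughout, and the test covered 36410, including all 105 members. Levels in libraries and groups below are CPM on TMM-scaled library sizes, a scaling that corrects for a few very abundant transcripts. Means over the 12 libraries are CPM on column totals, and fold changes are those of edgeR on the log2 scale. The levels are not divided by transcript length, so differences in level between IDs may also reflect length.

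The 89 IDs of the range that were not kept were scarce on average over the 12 libraries, although 18 of them were among the tested IDs. No count was found in any library for 43 of them, 28 single and 15 joined, and the other 46 had a mean below 0.5 CPM. The share kept was 40.7% of the single IDs, against 38.7% of all single ERC IDs in the table, and 64.8% of the joined IDs, against 74.9% of all joined IDs. The single member just inside the limit was ERC29236, with a mean of 0.545 CPM and 12 to 30 counts per library, and the single ID just outside was ERC29269, with 0.370 CPM and 4 to 34 counts. Their log2 fold changes in PEG-2 against the PEG control were 0.38 and -0.20. Among joined IDs, ERF67833-ERC29246 lay just inside with 0.513 CPM and ERF67919-ERC29181 just outside with 0.496 CPM, and their log2 fold changes were 0.79 and -0.39.

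The joined members tied the ERC order to a run of ERF numbers. In 67 of the 70 the ERF partner lay between 67764 and 67972, and along the rising ERC numbers the ERF number fell at each of the 66 steps. The first joined member was ERF67972-ERC29133 and the last ERF67764-ERC29320. The 3 joined members outside that run were ERF90102-ERC29143, ERF64460-ERC29301 and ERF64461-ERC29302. Before the filter, 102 of the 104 joined IDs in that ERF range had their ERC number in the stretch. The ERC and ERF numbers of the stretch thus ran in opposite order. The nearest joined IDs outside it, from ERF67979-ERC29123 before to ERF67759-ERC29326 after, continued the same order. The limits 67764 and 67972 are therefore those of the members' partners and not the ends of a run. The same ERF range also held 105 single ERF IDs, of which 41 reached 0.5 CPM.

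The members covered a wide range of levels. The median over members of the mean level was 2.61 CPM for single members and 7.81 CPM for joined ones, against 3.65 and 10.0 CPM over all kept IDs of each class. ERF67779-ERC29304 stood far above the rest at a mean of 2779 CPM, rank 41 of the whole table, and its level in single libraries ran from 2267 CPM in EUE epiline replicate 2 to 3296 CPM in EUE control replicate 3. The most abundant single member was ERC29129, at a mean of 27.2 CPM. Among single members 13 had a mean of at least 5 CPM, and among joined members 43 did.

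In PEG-2 the single members were lower than in the PEG control, and the joined members were not. The median log2 fold change of the 35 single members was -0.43, which is 1.35-fold lower, with 29 below zero and 6 above. The quartiles were -0.73 and -0.13. The 70 joined members had a median of 0.030, with 29 below zero and 41 above. Over all 6803 single ERC IDs of at least 0.5 CPM the median was -0.022 and 53.3% were below zero. Both PEG-2 libraries lay below both control libraries for 15 of the 35 single members, and 14.7% of all tested single ERC IDs did the same. For joined members that count was 7 of 70, against 12% of tested joined IDs, and both PEG-2 libraries lay above both controls in 16 of 70, against 12.8%. No single member had both PEG-2 libraries above both controls, against 13% of tested single ERC IDs. This contrast chose the range, so nothing further is read from these shares. edgeR called 0% of the 36410 tested IDs here.

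**Figure D1:**
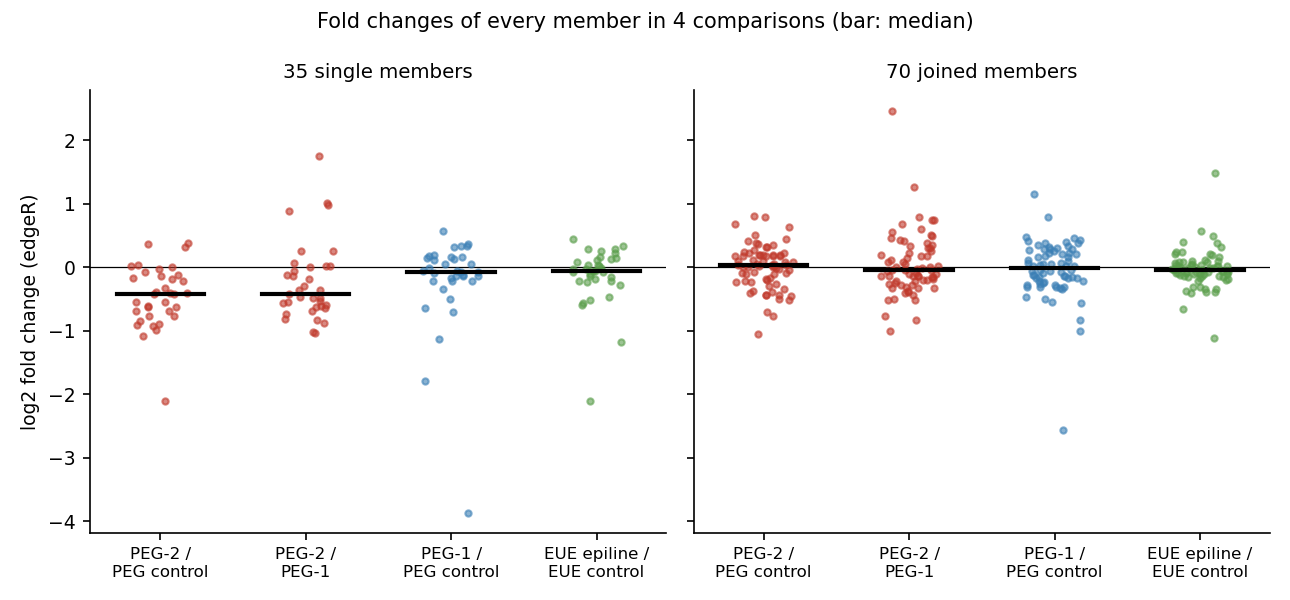
Log2 fold changes from edgeR of the 35 single members (left) and the 70 joined members (right) in 4 comparisons, 1 point per member, with the median as a black bar. The single members centre on -0.43 against the PEG control and on -0.42 against PEG-1, while the medians of the joined members lie between -0.039 and 0.030.

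The lower level was unequal between the PEG-2 replicates. A library's median was taken over the single members after subtracting, for each ID, the mean of the 5 group means of log2(CPM + 0.5). It was -0.12 in PEG-2 replicate 1 and -0.40 in replicate 2. The PEG control libraries were at 0.087 and 0.063 and the PEG-1 libraries at 0.017 and 0.093. The EUE control libraries were at 0.097, 0.19 and -0.017 and the EUE epiline libraries at 0.051, 0.12 and -0.041. Both PEG-2 libraries thus lay below the other 10, but replicate 1 was closer to the lowest of those than to replicate 2. The joined members had library medians between -0.063 and 0.079 in all 12 libraries.

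Summed levels also put both PEG-2 libraries lowest, although the order of the other libraries was not that of the medians. The 35 single members together reached 187.2 and 145.5 CPM in the PEG-2 libraries. They reached 209.7 and 259.3 CPM in the PEG control, where 28.4 CPM of replicate 2 came from ERC29139 alone, and 206.6 and 208.1 CPM in PEG-1. In the EUE experiment the sums ran from 193.1 to 217.9 CPM over the 6 libraries. PEG-2 replicate 2 was the lowest of all 12 libraries for 15 of the 35 single members, while the same library was lowest in 7% of all tested single ERC IDs. PEG-2 replicate 1 was lowest in 0 of 35, where it was so in 3.85% of all single ERC IDs of at least 0.5 CPM. Neither PEG-2 library was the highest of the 12 for any single member. Of all single ERC IDs of at least 0.5 CPM 3.67% peaked in replicate 1, and 6.64% of tested single ERC IDs peaked in replicate 2. Among joined members PEG-2 replicate 2 was the lowest library in 14 of 70, against 7.15% of tested joined IDs, and the highest in 5, against 5.68%. Leaving out PEG-2 replicate 2 changed the median log2 fold change against the PEG control from -0.43 to -0.33, leaving out PEG-2 replicate 1 changed it to -0.70, and leaving out PEG control replicate 1 changed it to -0.30. Without the libraries numbered 2 of both groups it was -0.21.

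**Figure D2:**
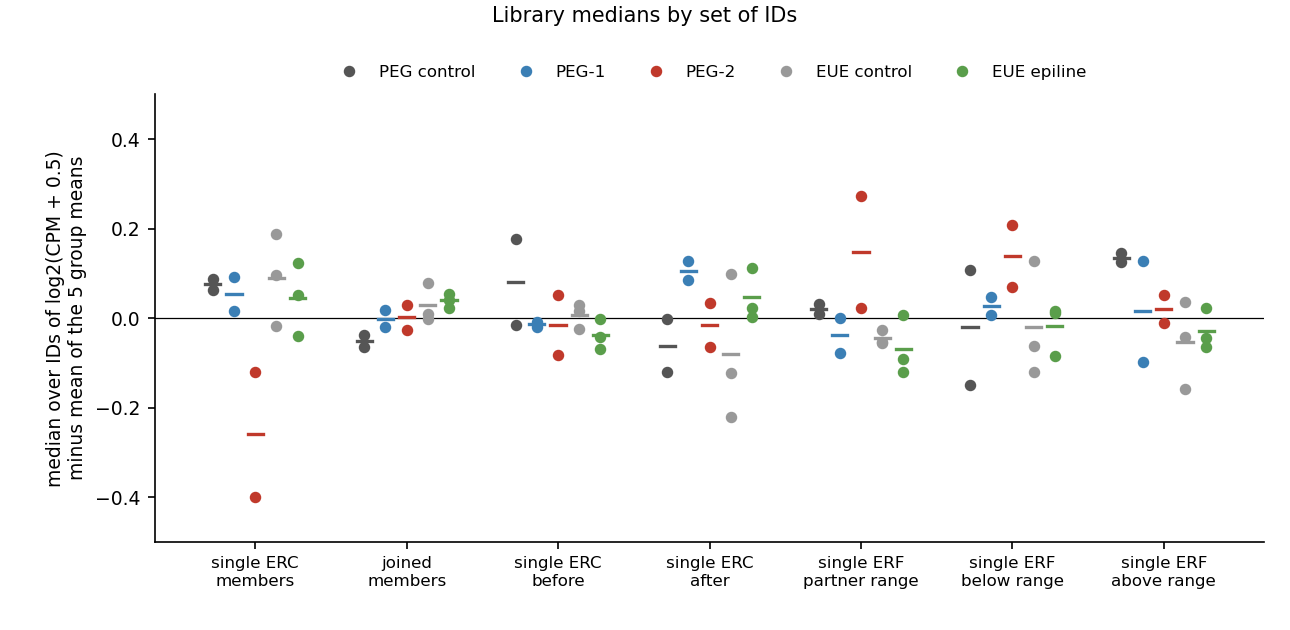
For each library (point), the median over the IDs of a set of log2(CPM + 0.5) minus the mean of the 5 group means, with the group mean as a bar. The 2 PEG-2 libraries lie at -0.12 and -0.40 for the single ERC members, below the other 10 libraries, and at 0.030 and -0.027 for the joined members.

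Along the number order the library median of PEG-2 replicate 2 was below zero in each part of the stretch and lowest in the first part. Split into consecutive blocks of 12, 12 and 11 single members, the median log2 fold change in PEG-2 against the PEG control was -0.65, -0.42 and -0.32, with 11 of 12, 9 of 12 and 9 of 11 members below zero. The library medians of replicate 2 were -0.44, -0.37 and -0.25 in the 3 blocks, and those of replicate 1 were -0.16, -0.086 and -0.11. The 35 single ERC IDs just before the stretch had a median log2 fold change of -0.031 and the 35 just after it one of -0.011, with 22 and 18 below zero. PEG-2 replicate 2 was the lowest library in 4 of 35 on either side. The range was chosen on this contrast, so flanks nearer zero than the members may follow from that choice.

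The fold changes did not shift at a single ID at either end of the stretch. ERC29128, the last kept single ID before the stretch, had a log2 fold change of -0.11 in PEG-2 against the PEG control at a mean of 68.9 CPM, and ERC29129, the first member, had -0.54. The next single members, ERC29130 and ERC29135, were at -0.080 and -0.11, close to ERC29128, and the following ERC29139 and ERC29140 were at -2.11 and -0.90. After the last member, ERC29322 at -1.08, came ERC29325 at 2.50 with a mean of 0.516 CPM, then ERC29336 at -0.96 with a mean of 11.7 CPM and ERC29351 at -0.35. ERC29336 and ERC29351, outside the range, thus had negative values like those of the members. Within the stretch some single members of good abundance had PEG-2 levels that overlapped those of the PEG control. ERC29292 was at 18.7 and 26.2 CPM in the PEG control and 21.0 and 19.0 CPM in PEG-2, and ERC29293 was at 13.5 and 21.9 CPM against 17.6 and 18.0 CPM. In both the PEG-2 values lay within the range of the 2 control libraries.

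**Figure D3:**
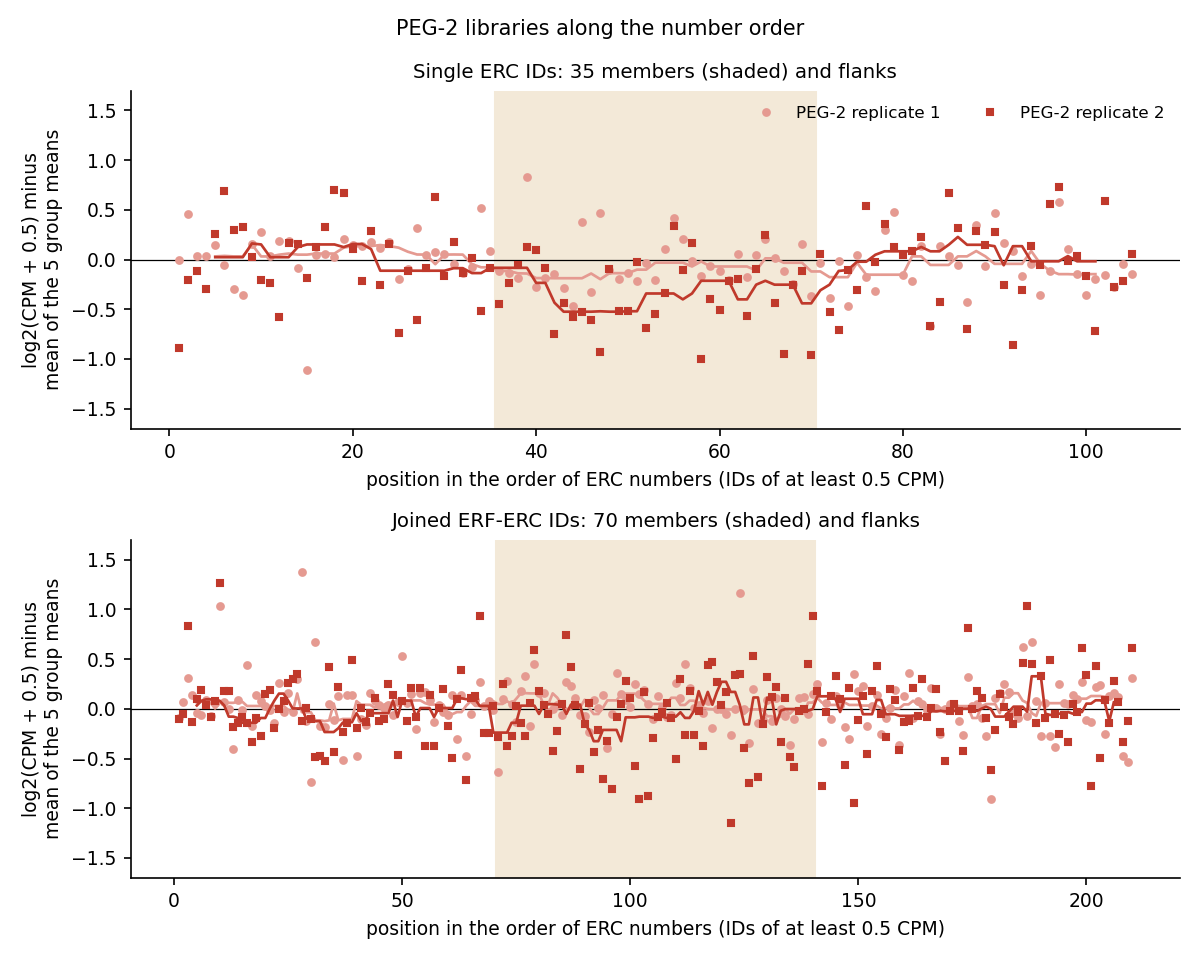
Each point is 1 ID in PEG-2 replicate 1 (light circles) or replicate 2 (dark squares), placed by its order in ERC number, with the members shaded and as many IDs of the same class on either side. The vertical axis is log2(CPM + 0.5) minus the mean of the 5 group means, and the lines are running medians over 9 IDs. The line of replicate 2 lies below zero through the shaded single members and also over the flank IDs next to them on both sides. Among the joined members it crosses zero several times.

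Of the single members, ERC29129 and ERC29322, the first and the last by number, were both lower in PEG-2. ERC29129 was at 27.9 and 37.3 CPM in the PEG control, 30.1 and 32.3 CPM in PEG-1 and 25.0 and 19.7 CPM in PEG-2. In the EUE control it was at 25.6, 21.1 and 29.8 CPM and in the EUE epiline at 24.6, 24.0 and 30.0 CPM. The PEG-2 libraries lay below those of the PEG control and of PEG-1, but replicate 1 lay within the range of the EUE libraries. The log2 fold change in PEG-2 was -0.54 with a standard error of 0.24 against the PEG control and -0.48 with a standard error of 0.24 against PEG-1.

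ERC29322 was at 12.5 and 21.4 CPM in the PEG control, 13.9 and 18.5 CPM in PEG-1 and 9.72 and 6.26 CPM in PEG-2. It was at 16.3, 11.3 and 10.3 CPM in the EUE control and at 21.6, 9.69 and 9.81 CPM in the EUE epiline. Replicate 2 of PEG-2 was the lowest of the 12 libraries, and replicate 1 was level with the lowest EUE epiline libraries. Against the PEG control its log2 fold change stood at -1.08 (standard error 0.44), the second most negative among single members of at least 1 CPM.

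The most negative value belonged to ERC29139, but this ID also varied more within a group than any other single member. It was at 8.93 and 28.4 CPM in the PEG control, 0.995 and 1.56 CPM in PEG-1 and 5.47 and 3.16 CPM in PEG-2. In the EUE control it was at 0.995, 13.9 and 0.194 CPM and in the EUE epiline at 2.98, 0.314 and 0.238 CPM. The highest and lowest EUE control libraries differed 71.4-fold, so its log2 fold change of -2.11 in PEG-2, with a standard error of 1.47, was within the spread seen between replicates. Its neighbour by number among the kept single members, ERC29140, was at 2.79 and 6.28 CPM in the PEG control, 1.44 and 1.18 CPM in PEG-1 and 2.05 and 2.80 CPM in PEG-2.

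ERC29212, chosen after its values were seen, showed the pattern at a moderate level with less spread. It was at 11.8 and 19.0 CPM in the PEG control, 15.5 and 18.3 CPM in PEG-1 and 10.7 and 8.33 CPM in PEG-2. It was at 12.8, 11.5 and 10.7 CPM in the EUE control and at 11.0, 9.56 and 11.1 CPM in the EUE epiline. PEG-2 lay below both other PEG groups, whereas its replicate 1 was within the range of the EUE libraries. The most positive single members of at least 1 CPM in PEG-2 against the PEG control were ERC29226, at a log2 fold change of 0.37 (standard error 0.51), and ERC29315, at 0.32 (standard error 0.35), and in both the libraries of the 2 groups overlapped.

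Among joined members ERF67972-ERC29133, the first by number, had the most negative value in PEG-2. It was at 2.22 and 2.02 CPM in the PEG control, 1.94 and 1.56 CPM in PEG-1 and 0.841 and 1.22 CPM in PEG-2. In the EUE control it was at 1.62, 1.95 and 1.26 CPM and in the EUE epiline at 1.69, 1.61 and 1.62 CPM. Both PEG-2 libraries were below the other 10, and here replicate 1 was the lower of the 2. Against the PEG control the log2 fold change came to -1.04 (standard error 0.34). ERF67807-ERC29281 followed at -0.77 with a standard error of 0.65, at 4.09 and 3.17 CPM in the PEG control and 2.89 and 1.34 CPM in PEG-2.

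The most positive joined member in PEG-2 against the PEG control was ERF67950-ERC29159. It was at 1.08 and 1.61 CPM in the PEG control, 2.27 and 2.42 CPM in PEG-1 and 2.21 and 2.49 CPM in PEG-2. It was at 1.05, 0.850 and 1.41 CPM in the EUE control and at 1.09, 0.538 and 0.905 CPM in the EUE epiline. Its higher values were in both PEG selected lines, with log2 fold changes of 0.80 in PEG-2 and 0.80 in PEG-1, and the EUE epiline had -0.39. The last joined member by number, ERF67764-ERC29320, was at 2.56 and 9.45 CPM in the PEG control and 4.26 and 7.72 CPM in PEG-2, so its control replicates lay farther apart than the lines. In the 6 EUE libraries it ran from 1.08 to 2.78 CPM.

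**Figure D4:**
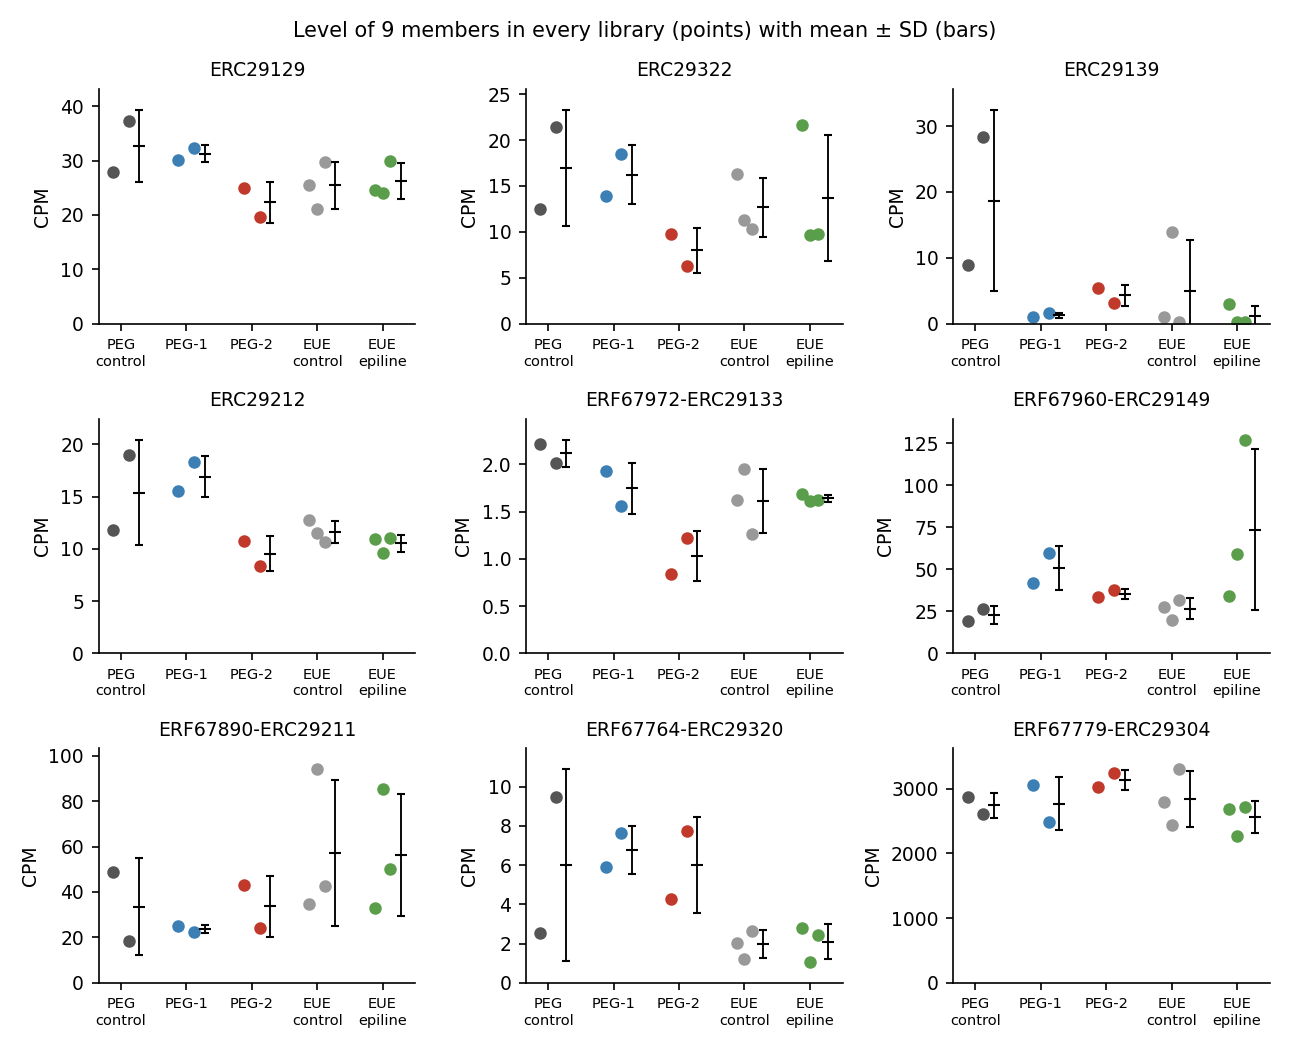
CPM on TMM-scaled library sizes of 9 members in every library (points, by group) with the group mean and SD as black bars, n = 2 per PEG group and n = 3 per EUE group. ERC29129, ERC29322 and ERC29212 are lowest in PEG-2 within the PEG experiment, ERC29139 differs most between replicates of a group, and ERF67960-ERC29149 is higher in all 3 selected lines.

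PEG-2 was then set against the other groups the design offers, with the same PEG-2 libraries. Against PEG-1 the single members had a median log2 fold change of -0.42, with 25 of 35 below zero, and both PEG-2 libraries lay below both PEG-1 libraries in 16 of 35, where 18.6% of tested single ERC IDs did so. Only 4 of 35 lay above, against 15.1%. The joined members had a median of -0.039, with 39 of 70 below zero, 15 lower without overlap against 14.7% and 14 higher against 18.4%. Against the EUE control the single members had a median of -0.35 with 31 of 35 below zero, and all PEG-2 libraries lay below all EUE control libraries in 8 of 35, against 17.2% of tested single ERC IDs, and above them in 2, against 20.3%. Of the joined members 11 were lower and 10 higher without overlap, against 18.4% in each direction among tested joined IDs. edgeR called 0% of tested IDs in PEG-2 against PEG-1 and 3.67% in PEG-2 against the EUE control. These 3 comparisons share the PEG-2 libraries, and in the last one line and experiment cannot be told apart.

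The PEG control itself stood close to the EUE control for the single members. The median log2 difference, PEG control against EUE control, was 0.045, with 16 of 35 below zero. Among joined members it was -0.16, with 43 of 70 below zero. Without overlap 2 single members were higher and 3 lower, against 16.6% and 13.4% of tested single ERC IDs, and 2 joined members were higher and 12 lower, against 13.2% and 13.7%. Of the 36410 tested IDs 2.94% were called between the 2 controls.

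In the comparisons without PEG-2 libraries the single members had medians near zero. In PEG-1, whose fold changes share the control libraries with those of PEG-2, the 35 single members had a median log2 fold change of -0.074 with 21 below zero, and the 70 joined members one of -0.016 with 35 below zero. Both PEG-1 libraries lay below both controls in 5 of 35 single members and above them in 3, where 15.3% and 15.4% of tested single ERC IDs did. Among joined members 14 of 70 were higher without overlap and 6 lower, against 13.6% and 15.6%. edgeR called 0% of tested IDs in this comparison. At an unadjusted p under 0.05 there were 2 of 35 single members and 1 of 70 joined ones, against 3.2% of all single ERC IDs and 3.69% of all joined IDs of at least 0.5 CPM. DESeq2 called 0 of the 105, but it called few IDs of the whole table, as given below, so this does not set the members apart.

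The EUE experiment took no part in choosing the stretch. In the EUE epiline the single members had a median log2 fold change of -0.059 with 21 of 35 below zero, and the joined members one of -0.037 with 42 of 70 below zero. Over all 31062 kept IDs the median was -0.028. Every EUE epiline library lay above every control library in 1 of 35 single members and below in 1, where 3.79% and 2.99% of tested single ERC IDs did. Among joined members the counts were 2 and 3 of 70, against 3.65% and 2.81%. These shares were near those of all tested IDs. edgeR's quasi-likelihood test called 0% of the tested IDs, so no member passed. With the replicate number as a block it called 0.19% of them, again with none of the 105 members. At an unadjusted p under 0.05 there were 1 of 35 single members and 3 of 70 joined ones, shares near the 4.13% of all single ERC IDs and 3.98% of all joined IDs of at least 0.5 CPM.

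The joined member ERF67960-ERC29149 had the largest log2 fold change of the joined members in the EUE comparison. It was at 27.6, 19.6 and 31.9 CPM in the EUE control and 34.2, 59.2 and 127 CPM in the EUE epiline. In the PEG experiment it was at 19.2 and 26.5 CPM in the control, 41.5 and 59.8 CPM in PEG-1 and 33.3 and 37.4 CPM in PEG-2. Every library of each selected line lay above every library of its own control, though EUE epiline replicate 1 did so by little and the 3 epiline libraries spread from 34.2 to 127 CPM. The EUE control had a mean of 26.4 ± 6.24 CPM (SD, n = 3) and the EUE epiline one of 73.5 ± 48.0 CPM (SD, n = 3).

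For ERF67960-ERC29149 the log2 fold change in the EUE epiline was 1.48 (standard error 0.40), which is 2.79-fold higher, and edgeR's adjusted p was 0.36, above the threshold of 0.05. The adjusted p ranged from 0.0339 to 1 over the alternatives. DESeq2 called this ID, with an adjusted p of 0.0339, among 382 IDs of the whole table. Without EUE epiline replicate 1 edgeR also called it, with a log2 fold change of 1.82, among 205 IDs. Without EUE epiline replicate 3, the highest library, the log2 fold change was 0.83 and edgeR's adjusted p was 1. In PEG-1 the log2 fold change reached 1.15 (standard error 0.49, adjusted p = 1 in edgeR), and in PEG-2 it reached 0.63 (standard error 0.48).

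Among the other members without overlap in the EUE comparison the log2 fold changes ran from -1.17 to 0.40. ERF67815-ERC29272 was at 1.36, 2.00 and 1.07 CPM in the EUE control and 0.744, 0.673 and 0.619 CPM in the EUE epiline. The log2 fold change came to -1.12 (standard error 0.33, adjusted p = 0.447 in edgeR), and in the PEG experiment its level was higher, from 1.52 to 2.82 CPM. The single member ERC29195 was at 1.36, 1.40 and 0.778 CPM in the EUE control and 0.695, 0.628 and 0.238 CPM in the EUE epiline, which gave a log2 fold change of -1.17 (standard error 0.44, adjusted p = 0.842 in edgeR). ERC29222 had all 3 epiline libraries above the controls by a log2 fold change of 0.22, at levels of at most 0.763 CPM. In PEG-1 the largest single member changes without overlap were ERC29139 at -3.86 with a standard error of 1.61 and ERC29236 at 0.57 with a standard error of 0.57, and edgeR's adjusted p was 1 for both.

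Several joined members varied more between replicates than between a line and its control. ERF67890-ERC29211 was at 48.7 and 18.4 CPM in the PEG control, 25.1 and 22.4 CPM in PEG-1 and 43.0 and 24.2 CPM in PEG-2. In the EUE control it was at 34.8, 94.0 and 42.4 CPM and in the EUE epiline at 33.1, 85.5 and 49.9 CPM. The EUE libraries numbered 2 were the highest in both groups, and in each PEG group replicate 1 was above replicate 2. ERF67955-ERC29154 was at 35.2, 73.3 and 40.7 CPM in the EUE control and 28.8, 71.6 and 41.6 CPM in the EUE epiline. In each of the 5 groups its replicates had the same order as those of ERF67890-ERC29211. ERF67874-ERC29218, at 9.11, 26.5 and 6.12 CPM in the EUE control and 7.74, 24.2 and 8.72 CPM in the EUE epiline, also had its highest values in the EUE libraries numbered 2. These 3 members were picked for their spread, after their values were seen. ERF67805-ERC29284 varied more still, at 0.262, 3.30 and 0.146 CPM in the EUE control and 3.23, 0.0449 and 0.238 CPM in the EUE epiline, where the lowest value rests on 2 counts. Of the 105 members 20 had more than a 3-fold range within at least 1 group. The same count over all IDs is not given here, so it does not show that members vary more than other IDs.

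The single ERF IDs that fall in the partner range moved the other way in PEG-2 replicate 2. These 41 IDs are not members, and they were looked at after the joined IDs had shown the range. Their median log2 fold change in PEG-2 was 0.19 against the PEG control and 0.19 against PEG-1, with 27 and 29 of 41 above zero. The library median was 0.022 in PEG-2 replicate 1 and 0.27 in replicate 2, and between -0.12 and 0.032 in the other 10. PEG-2 replicate 2 was the highest of 12 libraries in 9 of 41, where it was so in 7.36% of all tested single ERF IDs, and the lowest in 3, against 6.77%. In PEG-1 the median was -0.028 and in the EUE epiline -0.030.

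The higher values were not limited to that ERF range. Of the 41 single ERF IDs with the next lower numbers, PEG-2 replicate 2 was the highest library in 12, with a library median of 0.21. Their median log2 fold change in PEG-2 was 0.28 against the PEG control and 0.28 against PEG-1, larger than in the partner range, with 28 of 41 above zero in each. Their library median in PEG-2 replicate 1 was 0.070, below the 0.11 of PEG control replicate 2 and the 0.13 of EUE control replicate 3. PEG control replicate 1 was lowest at -0.15. Of the 41 with the next higher numbers PEG-2 replicate 2 was the highest in 2, with a library median of -0.011. In PEG-2 replicate 2 the single ERC members thus lay at -0.40, the single ERF IDs of the partner range at 0.27 and the joined members at -0.027 on the same log2 scale. In PEG-2 replicate 1 these sets lay at -0.12, 0.022 and 0.030, so they differed less there. The single ERC members of replicate 1 still lay below those of every library outside PEG-2. What sets the 2 libraries of the line apart was not tested.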

How the data were processed

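Polysomal RNA from leaf 4 of canola was made into 12 libraries that BGI sequenced, according to the protocols in the labels. GSNAP and SAMtools are the tools named in the submitters' processing notes. The sources used here do not say which genome, annotation, counting program or strand setting was used. Reads of near-identical copies may therefore sit at either copy or at neither, and joined IDs may hold reads of more than 1 copy. The deposited file holds the authors' read counts per ID, not normalized. All values were even, with 0 odd ones, so each fragment may count 2 times. The table had 0 columns of other samples.

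The members and lists were chosen with earlier results of these data known. Members had a mean of at least 0.5 CPM on column totals. Tests used the quasi-likelihood test of edgeR 4.0.16 (R 4.3.3) in 1 fit over the 12 libraries with a mean per group. Scaling was by TMM, and filterByExpr with a minimum count of 10 left 36410 IDs. P-values were adjusted by the Benjamini-Hochberg method over all of these, with a threshold of 0.05, and standard errors came from the F statistic. DESeq2 1.42.0 was an alternative, and the fit was tested on simulated counts. Other alternatives changed the scaling, the filters, the libraries fitted, the replicate block and the pseudocount of 0.5 CPM.

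IDs named by rule were, in each class, the first and last by number, the most abundant, and the 2 most positive and 2 most negative in PEG-2 against the PEG control at a mean of at least 1 CPM. The rule also took the largest change in each direction without overlap in PEG-1 and in the EUE epiline, any member past the threshold in a tested comparison, and the IDs nearest the 0.5 CPM limit. Further IDs were picked with their values in view.

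Same-numbered EUE libraries deviated together from their group means, with r of 0.62, 0.74 and 0.61 across 17455 IDs of at least 5 CPM. Each r was over 0.1, but the labels do not state a pairing, and the main fit took no account of the numbers. A fit with the replicate number as a block was run as an alternative only. Its block also covered the PEG groups, which have 2 numbers each, too few to take them as paired. Replicates differed by more than sampling noise, with a chi-square per ID of 16.9 to 54.9 on halved counts.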

Additional observations from a re-analysis of the deposited data

Results flagged for a closer look

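For 4 named members the libraries of 2 selected lines all moved in opposite directions from the mean of their own controls. None of these differences between lines was tested. ERC29226 stood at a log2 fold change of -0.65 in PEG-1, against 0.37 for PEG-2 and 0.29 for the EUE epiline, so PEG-1 was opposite to both other lines. Its PEG-1 value was 0.0175 without PEG control replicate 1, and its EUE value was -0.021 without EUE control replicate 1, so either opposition rests on 1 library. ERC29195 stood at 0.17 in PEG-1, against -0.40 for PEG-2 and -1.17 for the EUE epiline, so PEG-1 again stood opposite to both, but without PEG control replicate 2 its PEG-1 value was -0.165. ERF67972-ERC29133 had -0.28 in PEG-1 and -1.04 in PEG-2 against 0.026 in the EUE epiline, which turned to -0.122 without EUE control replicate 3 and to -0.00309 with upper-quartile scaling. ERF67779-ERC29304 had 0.19 in PEG-2 against -0.15 in the EUE epiline. PEG-1 and PEG-2 share their control libraries.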

How the results depend on the processing

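Of 286 values of a member median under an alternative, 259 moved by less than the spread between replicates. The cause of the changes below was not tested. DESeq2 called 382 IDs in the EUE comparison, 145 in PEG-1, 17 in PEG-2 against the PEG control and 1 in PEG-2 against PEG-1, where edgeR's quasi-likelihood test called 0 in each. Without a filter edgeR called 27 in the EUE comparison, and with only the libraries of 1 experiment it called 1 each in PEG-1 and in PEG-2 against the PEG control. The fit that took the replicate number as a block had 69 calls in the EUE comparison and 1 in PEG-1. In PEG-2 against the EUE control the block gave medians of -0.27 and -0.060 for single and joined members. With the block and only 1 experiment, an alternative chosen after seeing the data, it called 2 IDs in the EUE comparison, 686 in PEG-1, 208 in PEG-2 against the PEG control and 7 in PEG-2 against PEG-1. ERC29139 (adjusted p = 0.00303), ERC29140 and ERF67960-ERC29149 (adjusted p = 0.00533) were among those of PEG-1 in edgeR. Same-numbered PEG libraries deviated together, with r of 0.53 to 0.69, but 2 replicates per group give mirrored deviations and too few pairs to take the numbers as paired.

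For joined members the median log2 fold change in PEG-1 was 0.0165 with a filter of 1 CPM, and 0.0284 without the PEG-2 and PEG control libraries numbered 2, also an alternative chosen after seeing the data. That alternative gave -0.206 for single and 0.134 for joined members in PEG-2 against the PEG control, where the block gave 0.0732 for joined members, and 0.072 within 1 experiment. In the PEG control against the EUE control the joined median was -0.13 with a filter of 1 CPM, -0.0616 with the block, and -0.195 and -0.196 with members of at least 0.2 and 2 CPM.

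Leaving out 1 library at a time gave these ranges of single and joined medians. They were -0.134 to 0.00883 and -0.071 to -0.00581 in the EUE comparison, and -0.119 to -0.0487 and -0.0447 to 0.028 in PEG-1. PEG-2 gave -0.695 to -0.298 and -0.0307 to 0.107 against the PEG control, -0.589 to -0.288 and -0.0592 to 0.00682 against PEG-1, and -0.62 to -0.255 and -0.113 to -0.0469 against the EUE control. The PEG control against the EUE control gave -0.0799 to 0.109 and -0.177 to -0.0783. EUE calls ran from 0 to 205, the latter without EUE epiline replicate 1. With 2 libraries per PEG group, a left-out library leaves 1, which is assumed to vary like the other groups. IDs near 0.5 CPM rest on few counts per library, which limits their fold changes.

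Some named members with no call changed direction in edgeR when 1 library was left out. The log2 fold changes then ran, in the EUE comparison, for ERC29129 from -0.0782 to 0.166, ERC29322 from -0.376 to 0.341, ERC29139 from -4.17 to 0.983, ERC29315 from -0.0671 to 0.294, ERC29226 from -0.021 to 0.557, ERC29236 from -0.458 to 0.138, ERF67972-ERC29133 from -0.122 to 0.186, ERF67764-ERC29320 from -0.16 to 0.412 and ERF67807-ERC29281 from -0.775 to 0.117. In PEG-1 they ran for ERC29129 from -0.255 to 0.179, ERC29322 from -0.399 to 0.396, ERC29315 from -0.265 to 0.505, ERC29226 from -1.09 to 0.0175, ERC29222 from -0.418 to 0.242, ERC29195 from -0.165 to 0.633, ERF67764-ERC29320 from -0.48 to 1.42, ERF67779-ERC29304 from -0.147 to 0.156, ERF67807-ERC29281 from -0.832 to 0.131, ERF67815-ERC29272 from -0.567 to 0.0368 and ERF67833-ERC29246 from -1.65 to 0.171. Without the PEG-2 and PEG control libraries numbered 2, PEG-1 values turned to 0.179 for ERC29129, 0.396 for ERC29322, -0.265 for ERC29315, -0.165 for ERC29195, -0.0378 for ERF67779-ERC29304 and 0.0372 for ERF67815-ERC29272. With upper-quartile scaling ERF67972-ERC29133 turned to -0.00309 in the EUE comparison.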
